A study of Homo sapiens with 60 samples.

Results

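The genes of the G2 phase and of mitosis are the 43 genes described here, of 57665 genes in the deposited tables. They were chosen by a list of symbols, which uses no measured value but was drawn up with earlier results of these data known. They comprise 7 cyclins, CDK1 and activators of CDK1, 5 mitotic kinases, 7 genes of the spindle checkpoint and the kinetochore, 2 subunits of the chromosomal passenger complex, 3 partners or substrates of the anaphase-promoting complex, 7 kinesin motors, 7 genes of spindle assembly and microtubule binding, 3 genes of cytokinesis and 2 genes of chromosome structure. All 43 symbols were found once, and all 43 passed the filter on low counts and were tested. The RNA came from cells of the osteosarcoma line U2OS, an established human cell line, which stably expressed Dmr-PERK, the eIF2 alpha kinase domain of mouse PERK joined to the dimerization domain DmrB. AP20187, the dimerizer, brings the fusion proteins together, so that they phosphorylate eIF2 alpha and start the integrated stress response (ISR), which lowers protein synthesis while favouring translation of the transcription factor ATF4.

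Cells received 0.01, 0.2 or 3 nM AP20187 and were collected after 1, 2, 4, 8, 16 and 24 h, with 3 libraries in each of the 18 combinations of dose and time, and 6 untreated libraries were labelled 0 h in 2 sets of 3. The middle dose, 195 pM by the sample labels, is rounded to 0.2 nM here as in the series text. Treated and untreated cells carried the same fusion, and the labels described 1 cell line and did not say whether it was a single clone. Because the kinase domain was expressed from a construct and switched on by a drug, the cells model eIF2 alpha phosphorylation by this kinase and not the stresses that activate PERK. Untreated libraries were labelled 0 h only, and the effects of adding the drug and of time in culture cannot be told apart from that of the dimerizer. The labels did not say that replicates were separate cultures, so each p-value measures no more than the spread of these samples, and that spread may be technical.

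Entry into mitosis is driven by the kinase CDK1 bound to cyclin B, which is held inactive until the phosphatase CDC25C removes inhibitory phosphates, and PLK1 and the Aurora kinases act with it. Exit follows when the anaphase-promoting complex, with its activator CDC20, marks cyclin B and securin for destruction. RNAs of these proteins are low in G1 and highest in G2 and mitosis of dividing cells, and their promoters are known to carry CCAAT boxes, bound by the factor NF-Y, and a CHR element, bound by the MuvB complex with MYBL2 and FOXM1 in G2 and as the repressive DREAM complex in resting cells. In a population of cells, fewer cells in G2 or mitosis and less of these RNAs in each such cell cannot be told apart.

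RefSeq, on build GRCh38.p14, gave 44 windows for 37 of the 43 genes, each from 250 bases before to 50 bases after an annotated start; AURKA, UBE2C, TTK, BIRC5, TPX2 and RACGAP1 had no entry. The motifs searched were CCAAT and the hexamers TTTGAA and TTCGAA, on both strands, and matches may overlap. The 6 promoters shown were chosen because their levels or motifs are described here: 4 of the runs hold both kinds of match and 2, of CENPF and NEK2, CCAAT alone, although the full CENPF window also holds TTTGAA and a further CCAAT match after the start. Promoters of KIF20A, CCNB1 and PLK1 are left out because of transcribed untranslated bases in GENCODE 29. The windows of KIF20A and CCNB1 held CCAAT and no hexamer, and that of PLK1 held both kinds. Each run ends at the annotated start, or before the first transcribed untranslated base that GENCODE 29 gives there, and capitals mark matches to any of the motifs on either strand (ATTGG is CCAAT, and TTCAAA is TTTGAA, on the other strand). The runs lie at chr10:92593000-92593129 (KIF11, plus strand), chr1:43358851-43358954 (CDC20, plus), chr10:128126424-128126553 (MKI67, minus), chr1:197146695-197146799 (ASPM, minus), chr1:214603065-214603194 (CENPF, plus) and chr1:211675631-211675751 (NEK2, minus).
KIF11: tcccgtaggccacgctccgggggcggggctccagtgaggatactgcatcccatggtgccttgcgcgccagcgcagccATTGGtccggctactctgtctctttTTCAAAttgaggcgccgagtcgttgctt
CDC20: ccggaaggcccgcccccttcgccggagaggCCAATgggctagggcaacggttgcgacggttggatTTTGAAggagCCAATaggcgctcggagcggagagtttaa
MKI67: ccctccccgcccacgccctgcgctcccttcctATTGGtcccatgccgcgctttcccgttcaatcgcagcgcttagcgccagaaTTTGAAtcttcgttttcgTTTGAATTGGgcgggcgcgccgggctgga
ASPM: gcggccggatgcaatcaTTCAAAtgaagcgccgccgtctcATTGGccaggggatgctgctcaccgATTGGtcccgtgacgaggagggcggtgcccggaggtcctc
CENPF: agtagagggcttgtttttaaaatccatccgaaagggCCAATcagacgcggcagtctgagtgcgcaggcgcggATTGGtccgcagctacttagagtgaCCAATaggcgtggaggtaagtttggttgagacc
NEK2: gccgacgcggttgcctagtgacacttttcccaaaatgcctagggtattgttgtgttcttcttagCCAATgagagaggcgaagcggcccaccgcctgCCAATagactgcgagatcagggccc

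In the MKI67 run the second hexamer and the last CCAAT match overlap. CCAAT occurred in 77.3% of the 44 member windows, against 34.6% of all 35116 RefSeq windows of the same length. TTTGAA occurred in 68.2% against 15.2%, TTCGAA in 6.82% against 1.45%, and at least 1 of these hexamers in 70.5% against 16.4%. A window with both CCAAT and a hexamer was found for 59.1% of the member windows and 6.38% of all windows. For comparison, 61.7% of the 60 windows of a list of other mitotic genes and 7.32% of the 41 windows of a list of S phase genes held a hexamer, while CCAAT was in 65.9% of the S phase windows. Of 74 CCAAT matches in the member windows, 45 began between 120 and 40 bases before the start, and 20 of the 44 hexamer matches began within 60 bases before it. Windows of the same gene can overlap, as for PTTG1, so the same site may be counted in each of them at different distances. Positions were not counted over all windows. These are counts of letters and do not show that a factor was bound.

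**Figure D1:**
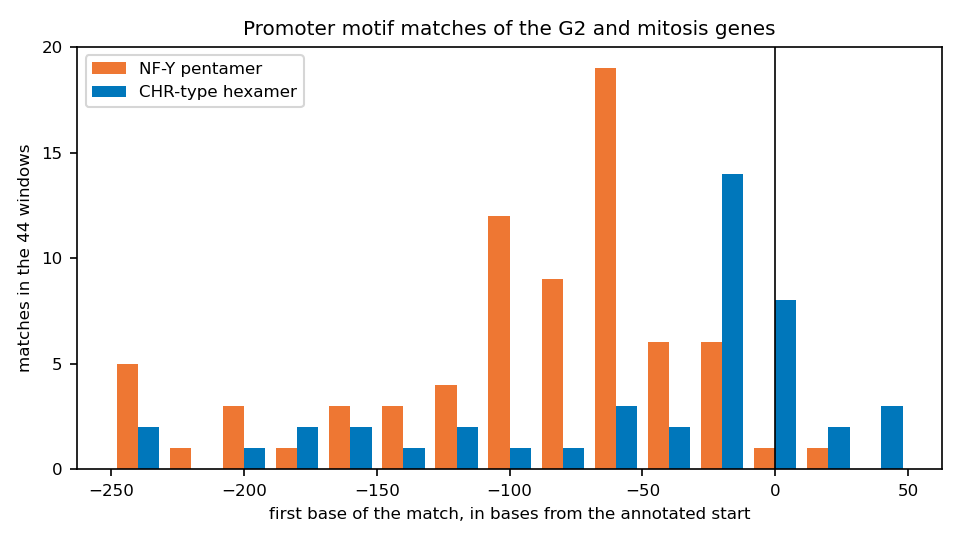
Number of matches (y axis) of the NF-Y pentamer and of the CHR-type hexamers by the distance of their first base from the annotated start (x axis, bases, in bins of 20) over the 44 promoter windows of the G2 and mitosis genes. The 74 pentamer matches gather upstream of the start, and 20 of the 44 hexamer matches lie within the 60 bases before it. A site in overlapping windows of the same gene is counted in each of them.

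Levels are given as CPM, the counts divided by the library total scaled with edgeR's TMM factors, which compare 1 gene between libraries, and levels of different genes are compared only in TPM, which corrects for length. By mean TPM over all 60 libraries the most abundant of the 43 were CCNB1 (cyclin B1, 283 TPM), CDC20 (236), PTTG1 (securin, 213) and UBE2C (a ubiquitin-conjugating enzyme of the anaphase-promoting complex, 210), and the least were the kinesin KIF14 (12.9), CDC25C (13.9) and ASPM (a spindle pole protein, 14.9). The spread of group means on the log2(TPM + 1) scale ran from 0.73 for PRC1, which bundles microtubules of the central spindle, to 2.29 for KIF20A, a motor of the central spindle. KIF20A was followed by CDC25C (1.88), ASPM (1.84), DLGAP5 (1.71), CENPF (1.64) and NEK2 (1.62). For 42 of the 43 genes the highest group mean TPM was at 0.01 nM after 24 h; the exception was ECT2, which activates RhoA for cytokinesis and was highest at 3 nM after 1 h.

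Untreated set 1, 0.01 nM and 0.2 nM formed a shallow set of 39 libraries with 5598803 to 10367667 counts, and untreated set 2 and 3 nM a deep set of 21 libraries with 20713981 to 28436445 counts. Mitochondrially encoded genes took 10.0% to 11.3% of the counts in untreated set 1, 5.42% to 5.57% in untreated set 2 and 4.16% to 6.79% in the treated libraries. Summed over the 43 genes, the level was 5762 ± 472 CPM in untreated set 1 and 6525 ± 111 CPM in untreated set 2 (SD, n = 3 each). Set 2 was above set 1 for 27 of the 43 genes and below it for 0 by edgeR's quasi-likelihood test at an adjusted p under 0.05 (40 residual degrees of freedom), beside 14.9% of all 18040 genes called higher, with a median log2 difference of 0.17. KIF14 (0.47), ASPM (0.44), MKI67 (0.35) and CENPF (0.33) differed most, and AURKB had the lowest value (-0.13, not called). Without set 1 replicate 1 or replicate 2 the count called higher was 10 or 14 in place of 27, and without set 2 replicate 2 it was 15. Comparisons with untreated use the mean of both set means, because the labels tie neither set to a dose. VIM (1090 to 3023 TPM), COL1A1 (59.4 to 599) and other mesenchymal genes were present as in an osteosarcoma line, COL1A2 (0.986 at most) and SP7 (0.20 at most) were near 0, KRT8 (96.1 to 317) and KRT18 (472 to 1022) were also present, and the summed endothelial and blood markers reached 3.77 and 1.77 TPM at most. Between untreated and 3 nM at 24 h, 4 of the 5 mesenchymal markers tested were lower, among them COL1A1 (log2 fold change -3.07), SPARC (-2.18) and RUNX2 (-1.80), and ALPL was higher (1.23). Of the 5 epithelial markers 4 were lower and 0 higher, with CLDN4 lowest (-2.82). The part of these changes in the results was not tested.

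The first question was how far these genes fell after the dimerizer was added and when. Nearly all of them fell within 4 h at every dose. Against untreated, 42 of 43 were lower at 0.01 nM after 4 h, 43 at 0.2 nM and 40 at 3 nM by edgeR's test, where 26.1%, 29.2% and 31.9% of all genes tested were lower. The median log2 fold change of the 43 was -0.69, -0.75 and -0.39, beside medians of all genes between -0.02 and 0.05 over the 18 comparisons with untreated. At least a 2-fold fall was seen for 7, 8 and 2 of them. Falls of that size were not counted over all genes, so these counts do not show what was particular to the 43. The genes that did not pass were CCNF at 0.01 nM (-0.01) and KIF2C (-0.08), AURKB (-0.10) and PRC1 (-0.07) at 3 nM. The 3 nM 4 h libraries differed most among themselves (chi-square per degree of freedom up to 23.358 between a pair), and leaving out 1 of them left 38 to 41 genes called lower. These comparisons at 4 h, and those of 8 h with 4 h below, were added after the time courses had been seen, and they share their untreated libraries.

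The early times were compared with the same mean of both untreated sets. Because set 2 lay above set 1 (median 0.17), these values read lower at 0.01 and 0.2 nM, and higher at 3 nM, than values against the set of like depth would. At 0.01 nM the median was -0.20 after 1 h, -0.56 after 2 h and -0.69 after 4 h. At 0.2 nM it was -0.13, -0.41 and -0.75. At 3 nM it was 0.07 after 1 h and -0.01 after 2 h and -0.39 after 4 h, and the median step from 2 h to 4 h was -0.41. The summed level at 3 nM was 6450 ± 37.7 CPM after 1 h and 6105 ± 79.4 CPM after 2 h (SD, n = 3 each), against 6525 ± 111 CPM in untreated set 2. Among the 6 treated times the lowest group mean CPM was at 4 h for 30 genes at 0.01 nM (at 2 h for the other 13), for 42 at 0.2 nM (1 at 2 h) and for 31 at 3 nM (11 at 24 h, 1 at 8 h). After 4 h the 3 libraries lay below all 3 libraries of the untreated set of like depth for 41, 43 and 42 genes at 0.01, 0.2 and 3 nM. After 2 h this held for 42, 37 and 22 genes and after 1 h for 8, 7 and 8. At 1 h the reverse, all 3 libraries above, held for 1, 5 and 7. Such separation was counted for the 43 only, so these counts do not show what was particular to them. EdgeR's test at 2 h, against both sets, called 43, 43 and 6 of them lower and 0, 0 and 7 higher. Its lower calls covered 22.0%, 22.4% and 23.1% of all genes, its higher calls 21.5%, 22.4% and 27.4%.

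**Figure D2:**
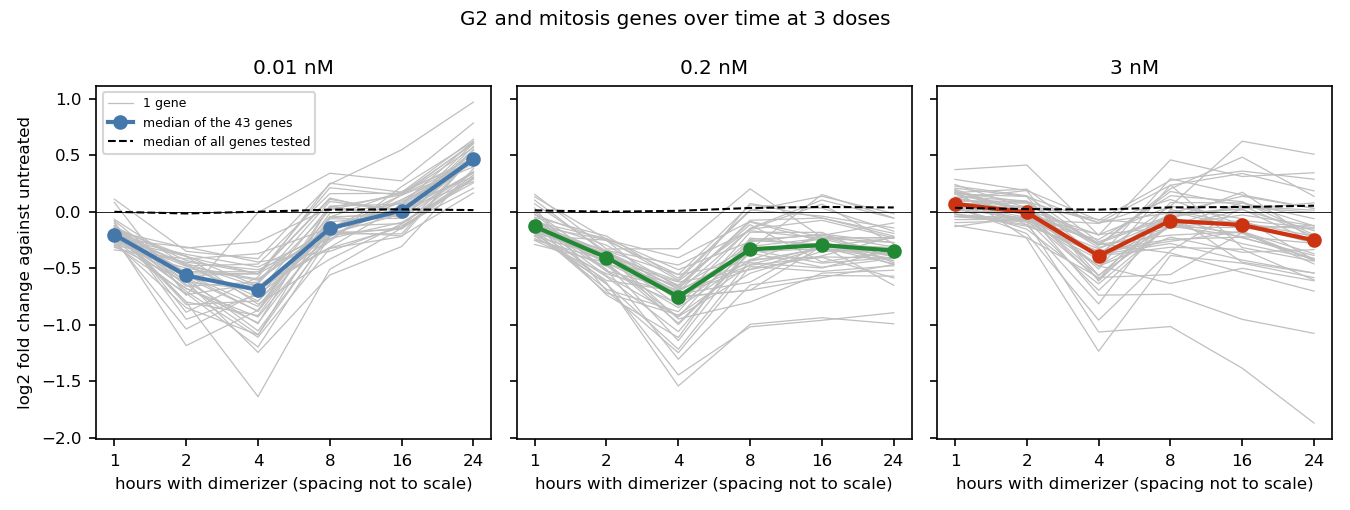
Log2 fold change against untreated (y axis) over hours with dimerizer (x axis, spacing not to scale) at 3 doses; each grey line is 1 of the 43 genes, the coloured line their median and the dashed line the median of all genes tested. The coloured medians reach -0.69, -0.75 and -0.39 after 4 h and end at 0.47, -0.34 and -0.25 after 24 h, while the dashed lines stay near 0.

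By role, the 7 kinetochore and checkpoint genes had the lowest median at 4 h among the roles with 5 or more genes: -0.98 at 0.01 nM, -0.99 at 0.2 nM and -0.56 at 3 nM, with 7 of 7 lower at each dose. BUB1B, a checkpoint kinase homologue that inhibits CDC20, fell by 1.09, 1.22 and 0.96, and NDC80, which ties the kinetochore to microtubules, by 1.20, 1.06 and 0.40. The 7 kinesins had medians of -0.76, -0.67 and -0.28, with 7, 7 and 6 lower. The 7 genes of the spindle had medians of -0.79, -0.75 and -0.28, with 7, 7 and 6 lower. The 5 mitotic kinases had medians of -0.72, -0.79 and -0.37, with 5, 5 and 4 lower; PLK1 fell by 0.55, 0.65 and 0.37, AURKA, which matures the spindle poles, by 0.72, 0.88 and 0.60, and TTK, which starts the checkpoint signal, by 0.87, 1.11 and 0.81. Cyclins, CDK1 and its activators had medians of -0.49, -0.70 and -0.39, with 6, 7 and 7 lower. Within that group CCNB1 fell by 0.49, 0.72 and 0.36, CDK1 by 0.37, 0.62 and 0.20, and CCNA2, the cyclin of S and G2, by 0.64, 0.70 and 0.42. CDC20 fell by 0.55, 0.61 and 0.33 and securin, PTTG1, by 0.44, 0.75 and 0.58. TOP2A, which untangles sister chromatids, fell by 0.55, 0.69 and 0.38, and MKI67, the Ki-67 protein that coats mitotic chromosomes, by 0.46, 0.65 and 0.56.

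KIF20A (chromosome 5, 138178719 to 138187715, GRCh38, plus strand) showed the widest range of the 43. Its untreated level was 95.9, 104.8 and 115.3 CPM in set 1 and 117, 118 and 122 CPM in set 2. After 4 h it was 56.2, 49.0 and 50.8 CPM at 0.01 nM, 43.8, 33.8 and 37.2 CPM at 0.2 nM, and 52.1, 54.2 and 54.2 CPM at 3 nM. All 9 libraries at 4 h were below all 6 untreated ones. The log2 fold changes were -1.11 (SE 0.0575, edgeR adjusted p = 3e-24), -1.54 (SE 0.06, 3e-30) and -1.06 (SE 0.0459, 1.9e-28). The gene overlaps BRD8 and CDC23 on the opposite strand; the library kit kept the strand per the labels, but the strand setting of the counting is not given in these sources, and 20 of the 43 genes overlap a gene on the other strand. By 24 h its levels had parted: 156, 161 and 156 CPM at 0.01 nM, 58.2, 53.6 and 57.2 CPM at 0.2 nM, and 28.4, 30.8 and 32.9 CPM at 3 nM. The 3 doses did not overlap, with the order reversed to that of the dose. In TPM its group means ran from 16.2 to 83.1.

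CCNB1 (chromosome 5, 69167010 to 69178245, plus strand) was at 248, 237 and 282 CPM in untreated set 1 and 289, 274 and 286 CPM in set 2. After 4 h it was at 198, 184 and 194 CPM at 0.01 nM, 171, 156 and 162 CPM at 0.2 nM, and 212, 208 and 209 CPM at 3 nM. After 24 h it was at 325, 338 and 323 CPM at 0.01 nM, 162, 190 and 187 CPM at 0.2 nM, and 209, 205 and 209 CPM at 3 nM. Cyclin B1 RNA at the lowest dose thus ended above all 6 untreated libraries, and at the higher doses it ended below all of them. PLK1 (chromosome 16, 23677656 to 23690367, plus strand) was at 99.0, 102 and 122 CPM in set 1 and 114, 106 and 109 CPM in set 2. After 24 h it was at 152, 164 and 162 CPM at 0.01 nM, 75.0, 80.4 and 80.2 CPM at 0.2 nM, and 80.9, 80.1 and 81.7 CPM at 3 nM. Its 24 h levels at 0.2 and 3 nM overlapped and lay below, and those at 0.01 nM above, every untreated library. Group means ran from 217 to 437 TPM for CCNB1 and from 51.5 to 117 TPM for PLK1.

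CDC25C (chromosome 5, 138285265 to 138338355, minus strand) had the largest fall of the 43 at 0.01 nM after 4 h (-1.64). It was at 18.03, 16.4 and 20.8 CPM in untreated set 1, at 5.85, 6.61 and 6.45 CPM after 4 h and at 23.8, 26.5 and 23.5 CPM after 24 h at that dose. At 3 nM, against 19.6, 22.4 and 20.9 CPM in untreated set 2, it was at 13.6, 16.4 and 14.9 CPM after 4 h and 13.3, 13.0 and 12.4 CPM after 24 h. The log2 fold change at 4 h was -0.39 at 3 nM; the difference between these doses was not tested. ASPM (chromosome 1, 197084128 to 197146694, minus strand) had the largest fall at 3 nM after 4 h (-1.23): it was at 126, 130 and 130 CPM in untreated set 2, at 44.5, 49.1 and 47.0 CPM after 4 h, and at 71.4, 73.3 and 76.1 CPM after 24 h. At 0.01 nM it was at 64.9, 55.9 and 54.8 CPM after 4 h and at 171, 155 and 177 CPM after 24 h, against 86.7, 97.1 and 100.7 CPM in untreated set 1. Groups did not overlap between untreated, 4 h and 24 h within either of these doses for this gene.

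DLGAP5 (chromosome 14, 55148112 to 55191678, minus strand), which stabilises the microtubules that hold chromosomes, was at 175, 183 and 220 CPM in untreated set 1 and 229, 233 and 239 CPM in set 2. After 24 h it was at 273, 267 and 289 CPM at 0.01 nM, 112, 115 and 115 CPM at 0.2 nM, and 98.6, 101 and 102 CPM at 3 nM. The order over the doses was the same as for KIF20A, with a smaller gap between the higher doses. CENPF (chromosome 1, 214603195 to 214664588, plus strand), an outer kinetochore protein, was at 297, 305 and 357 CPM in set 1 and 390, 400 and 414 CPM in set 2, and after 24 h at 533, 523 and 548 CPM, 288, 292 and 282 CPM, and 258, 283 and 280 CPM at the rising doses. Its 2 higher doses overlapped after 24 h. NEK2 (chromosome 1, 211658657 to 211675630, minus strand), a kinase that parts the centrosomes, was at 50.1, 48.5 and 58.2 CPM in set 1 and 61.5, 58.4 and 63.9 CPM in set 2. After 24 h it was at 85.7, 87.6 and 88.2 CPM at 0.01 nM, 51.6, 56.3 and 55.4 CPM at 0.2 nM, and 61.5, 62.4 and 62.9 CPM at 3 nM, so its higher doses lay within the range of the untreated libraries. Group means in TPM ran from 5.54 to 23.0 for CDC25C, 7.56 to 29.7 for ASPM, 46.6 to 154 for DLGAP5, 41.7 to 132 for CENPF and 23.8 to 75.4 for NEK2.

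**Figure D3:**
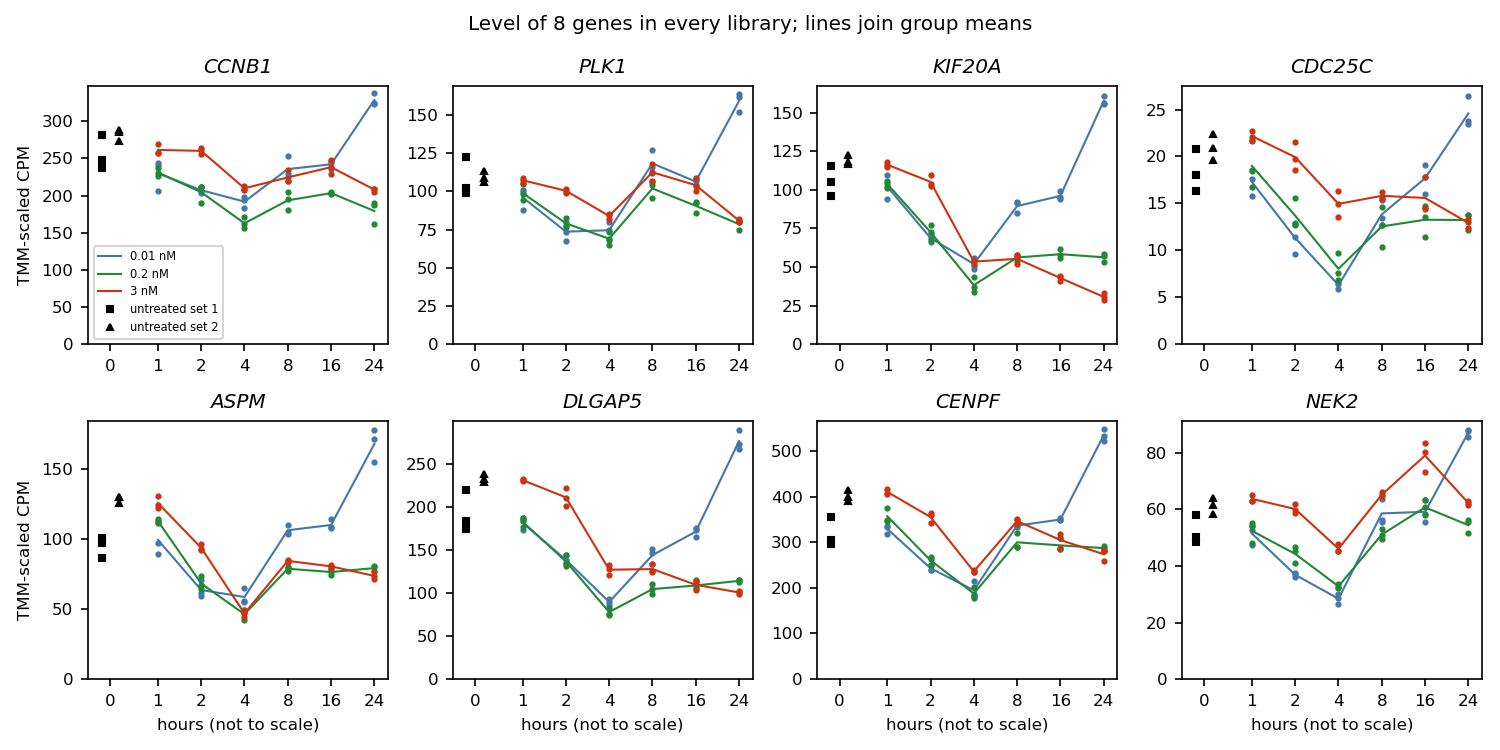
TMM-scaled CPM (y axis, from 0) of 8 genes in every library over hours (x axis, not to scale); dots are libraries, lines join the 3-library means of a dose, and black squares and triangles at 0 h are untreated sets 1 and 2. Most panels dip by 4 h, and only the 0.01 nM line ends above the untreated points after 24 h; KIF20A ends at 157.5, 56.3 and 30.7 CPM at the rising doses.

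The second question was what followed the dip. Between 4 h and 8 h most of the genes rose at each dose: 42 of 43 at 0.01 nM (median log2 fold change 0.66), 38 at 0.2 nM (0.53) and 30 at 3 nM (0.32) by edgeR's test, where 14.7%, 15.9% and 23.6% of all genes were higher. At 3 nM 1 gene was lower at 8 h than at 4 h, ANLN, a cytokinesis scaffold (-0.16), beside 20.8% of all genes. The largest rises were CDC25C at 0.01 nM (1.13), TTK at 0.2 nM (0.88) and ASPM at 3 nM (0.85). PTTG1 was not called at 0.01 nM (0.09), nor were NUSAP1, CCNB2, PTTG1, CDK1 and PRC1 at 0.2 nM. At 3 nM KIF20A was not called (0.05, edgeR adjusted p = 0.48), with 51.9, 57.7 and 56.3 CPM after 8 h. In these comparisons no library is shared between doses. Across the 43 genes, which are not independent replicates, the sizes of the rise at 0.01 and 0.2 nM had Pearson's r of 0.84, those at 0.2 and 3 nM 0.79, and those at 0.01 and 3 nM 0.46. Other steps had lower r in nearly every pair. In the same order r was 0.78, 0.61 and 0.10 from 2 h to 4 h, and 0.51, 0.47 and -0.21 from 8 h to 24 h. From 16 h to 24 h it was 0.08, 0.49 and -0.28.

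After 8 h the return was partial, and most of the genes were lower at 0.2 than at 0.01 nM. The control is again the mean of both untreated sets, so values at 3 nM read higher, and the others lower, than against the set of like depth. Against that set, all 3 libraries lay below all 3 untreated ones for 10, 27 and 28 genes at the rising doses. They lay above them for 5, 1 and 7. These shares were not counted over all genes. Against untreated, 22 genes were still lower and 7 were higher at 0.01 nM, beside 26.0% and 27.8% of all genes, with a median of -0.15. The 7 were CCNF, the F-box cyclin F (0.34), CDCA8, the passenger subunit borealin (0.25), CDCA3, which helps remove the CDK1 inhibitor WEE1 (0.24), KIF2C, a kinesin that takes microtubules apart (0.21), MKI67 (0.16), PLK1 (0.12) and CDC20 (0.11). Against set 1 alone 11 were lower, against set 2 alone 4 were higher, and without replicate 1 of every group 4 were higher. The calls of PLK1 and CDC20 were each lost under 14 of 21 alternatives. At 0.2 nM 35 were lower and 1, CCNF (0.20), was higher, beside 30.8% and 32.8%, with a median of -0.33. DLGAP5 (-1.02), KIF20A (-0.99), ANLN (-0.80) and PTTG1 (-0.69) were the lowest. At 3 nM 20 were lower and 8 higher, beside 34.0% and 38.5%, with a median of -0.08. KIF20A (-1.02), DLGAP5 (-0.73), ANLN (-0.63) and PTTG1 (-0.56) were again lowest, and KIF18A, a kinesin that damps chromosome movement (0.46), CDCA8 (0.29), KIF2C (0.28), CCNF (0.24) and TPX2, which activates AURKA on the spindle (0.23), led the higher ones. The counts at 3 nM fell to 10 lower against set 1 alone and 13 lower with no filter on low counts.

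Doses compared directly at 8 h need no untreated library. At 0.2 nM 30 of the 43 were lower than at 0.01 nM (median -0.20, 17.8% of all genes lower), led by KIF20A (-0.67), ANLN (-0.58), DLGAP5 (-0.46) and ASPM (-0.43). At 3 nM 34 were higher than at 0.2 nM (median 0.25, 23.4% of all genes higher), led by KIF18A (0.44), CKAP2, a microtubule-associated protein (0.42), CCNB2 (0.42) and HMMR, which links spindle microtubules (0.38). By limma on log2(TPM + 1) these counts were 14 and 17. The 2 doses differ in depth as well as in dimerizer, since all 3 nM libraries belong to the deep set. Dose and depth cannot be told apart in that second comparison. Its gap was there before the dip: after 1 h 34 genes were already higher at 3 than at 0.2 nM (median 0.21, 15.9% of all genes). After 2 h 42 were (median 0.44, 20.9% of all genes).

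Between 8 h and 24 h the doses parted. At 0.01 nM all 43 genes rose (median 0.54, 17.5% of all genes higher and 20.5% lower), from ECT2 (0.34) to DLGAP5 (0.94), with CENPA, the histone of centromeres (0.88), CDC25C (0.83) and KIF20A (0.82) next to the top. Most of that rise lay after 16 h: the median step was 0.11 from 8 to 16 h and 0.44 from 16 to 24 h, from CDK1 (0.25) to KIF20A (0.71). At 0.2 nM 8 rose, 8 fell and 27 were not called (median -0.01, with 19.0% of all genes higher and 20.9% lower). The 8 that rose were BUB1B (0.33), CDK1 (0.29), ANLN (0.28), HMMR (0.28), NUSAP1 (0.23), KIF11 (0.21), CCNB2 (0.19) and TOP2A (0.12). The 8 that fell were CCNF (-0.44), PLK1 (-0.38), CDCA8 (-0.29), UBE2C (-0.28), AURKA (-0.27), KIF2C (-0.23), MKI67 (-0.23) and CDC20 (-0.13). These shares of the 43 were close to those of all genes, and the calls of TOP2A and CDC20 were each lost under 8 of 16 alternatives. At 3 nM 28 fell and 3 rose (median -0.17, with 29.3% of all genes lower and 29.4% higher). KIF20A fell most (-0.85), followed by CCNF (-0.67), MKI67 (-0.52) and PLK1 (-0.48), and the 3 that rose were HMMR (0.46), BUB1B (0.34) and ECT2 (0.11).

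**Figure D4:**
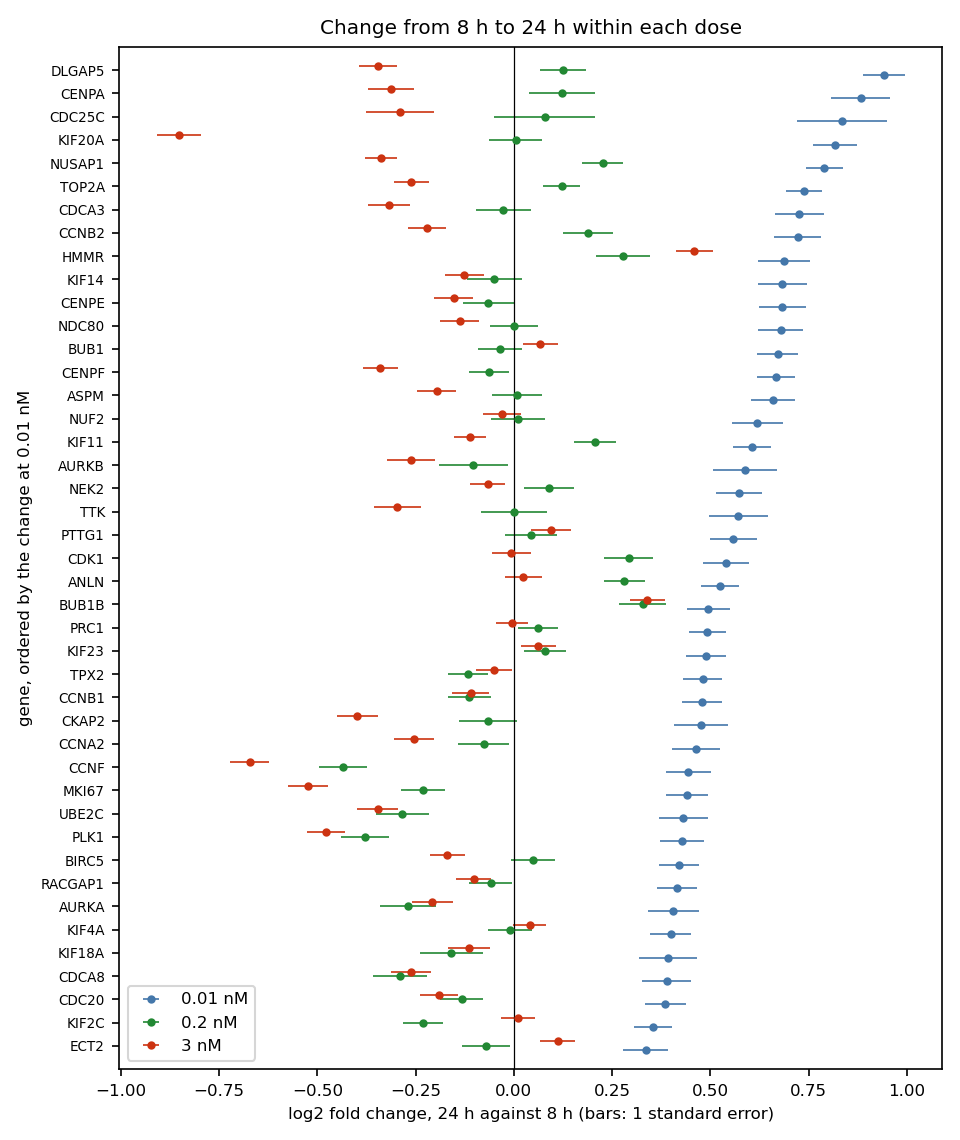
Log2 fold change from 8 h to 24 h within each dose (x axis; bars are 1 standard error) for each of the 43 genes (y axis, ordered by the value at 0.01 nM). All blue points (0.01 nM) lie above 0, from 0.34 to 0.94; green points (0.2 nM) straddle 0 and most red points (3 nM) lie below it, KIF20A farthest at -0.85.

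The difference in that late change was tested between neighbouring doses. The change from 8 h to 24 h was lower at 0.2 than at 0.01 nM for 42 of the 43 genes (median difference -0.59), where 11.8% of all genes were lower and 13.8% higher. CCNF differed by -0.88 (SE 0.0838, edgeR adjusted p = 1.8e-12), DLGAP5 by -0.82 (SE 0.0795), KIF20A by -0.81 (SE 0.089) and PLK1 by -0.81 (SE 0.0833). BUB1B did not pass (-0.17). The anchors of the group all passed: CCNB1 by -0.59, CDK1 by -0.25, AURKA by -0.68, CDC20 by -0.52, TOP2A by -0.62 and MKI67 by -0.67, although the call of CDK1 was lost under 10 of 22 alternatives. Between 3 and 0.2 nM the difference was lower for 17 and higher for 1 (median -0.14), where 13.9% of all genes were lower and 15.0% higher. KIF20A (-0.86, SE 0.0882, edgeR adjusted p = 1.2e-11), NUSAP1, a spindle crosslinker (-0.56), DLGAP5 (-0.47) and CENPA (-0.43) were lowest, and KIF2C was the higher one (0.24). That count fell to 11 without replicate 2 and to 10 without replicate 3 of every group, and to 6 when limma was run on TPM centred in each library.

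After 24 h all 43 genes were above untreated at 0.01 nM (median 0.47, 21.0% of all genes higher and 22.2% lower), from ECT2 (0.17) to CDCA3 (0.97), with CCNF (0.78), CDCA8 (0.64) and NEK2 (0.62) next. All 43 also lay, in each of the 3 libraries, above all 3 libraries of untreated set 1. Set 1 was the lower set for 27 of the 43. The same was not counted against untreated set 2 or over all genes. The summed level was 8425 ± 80.9 CPM (SD, n = 3), against 3826 ± 220 CPM after 4 h. Among the anchors CCNB1 rose by 0.29, CDK1 by 0.40, PLK1 by 0.55, AURKA by 0.45, CDC20 by 0.49, TOP2A by 0.54, MKI67 by 0.60 and KIF20A by 0.49. All genes of each of the 9 roles rose, with medians from 0.31 for cytokinesis to 0.57 for chromosome structure.

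At 0.2 nM 38 of the 43 were below untreated after 24 h and 0 were above (median -0.34, 31.2% of all genes lower and 34.3% higher), and the summed level was 4743 ± 144 CPM. KIF20A (-0.99), DLGAP5 (-0.89), PTTG1 (-0.65) and CCNB1 (-0.59) were lowest, and HMMR, CDCA3, NEK2, KIF18A and BUB1B were not called. CDK1 fell by 0.22, PLK1 by 0.47, AURKA by 0.45, CDC20 by 0.28, TOP2A by 0.33 and MKI67 by 0.35. Under limma on log2(TPM + 1), in which the values of untreated set 1 lie low, the count called lower was 24 in place of 38. At 3 nM 32 were below and 5 above untreated (median -0.25, 36.0% of all genes lower and 41.1% higher), and the summed level was 4996 ± 119 CPM. KIF20A fell by 1.87 (SE 0.0499, edgeR adjusted p = 3.8e-39), DLGAP5 by 1.08, NUSAP1 by 0.70 and ANLN by 0.61, while HMMR (0.51), KIF18A (0.34), KIF2C (0.29), TPX2 (0.18) and NEK2 (0.14) were called higher. The 3 libraries of NEK2 lay within the range of untreated set 2, and its call is against a mean that includes the lower set 1. Without the filter on low counts 9 were above. The other anchors at 3 nM fell by 0.37 (CCNB1), 0.14 (CDK1), 0.43 (PLK1), 0.13 (AURKA), 0.25 (CDC20), 0.54 (TOP2A) and 0.54 (MKI67), and the calls of AURKA and CDK1 were lost under 8 and 6 of 21 alternatives.

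The 7 cyclins, CDK1 and its activators were all below untreated at 3 nM after 24 h (median -0.43), as were TOP2A and MKI67. The 7 kinesins were divided: KIF20A, KIF11 (-0.34) and KIF14 (-0.12) were lower, KIF18A and KIF2C higher, and KIF23 (0.01) and KIF4A (0.03) not called. KIF18A had already been higher after 1 h (0.37) and KIF2C after 2 h (0.19), against the same mean, which includes the lower set 1. The genes of the spindle were divided too, with 5 lower and 2 higher. HMMR (chromosome 5, 163460203 to 163491945, plus strand), the highest of the 43 at this dose and time, was at 58.2, 57.4 and 61.6 CPM in untreated set 2, at 47.7, 49.6 and 47.4 CPM after 4 h, at 57.6, 57.8 and 57.0 CPM after 8 h and at 76.0, 85.5 and 75.6 CPM after 24 h. Its 24 h libraries lay above every untreated library, although it had fallen at 4 h (-0.20). At 0.01 nM it reached 75.9, 76.1 and 74.4 CPM after 24 h, and at 0.2 nM 51.4, 52.7 and 56.1 CPM, within the untreated range. KIF20A and HMMR thus ended at opposite ends of the 43 at 3 nM.

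**Figure D5:**
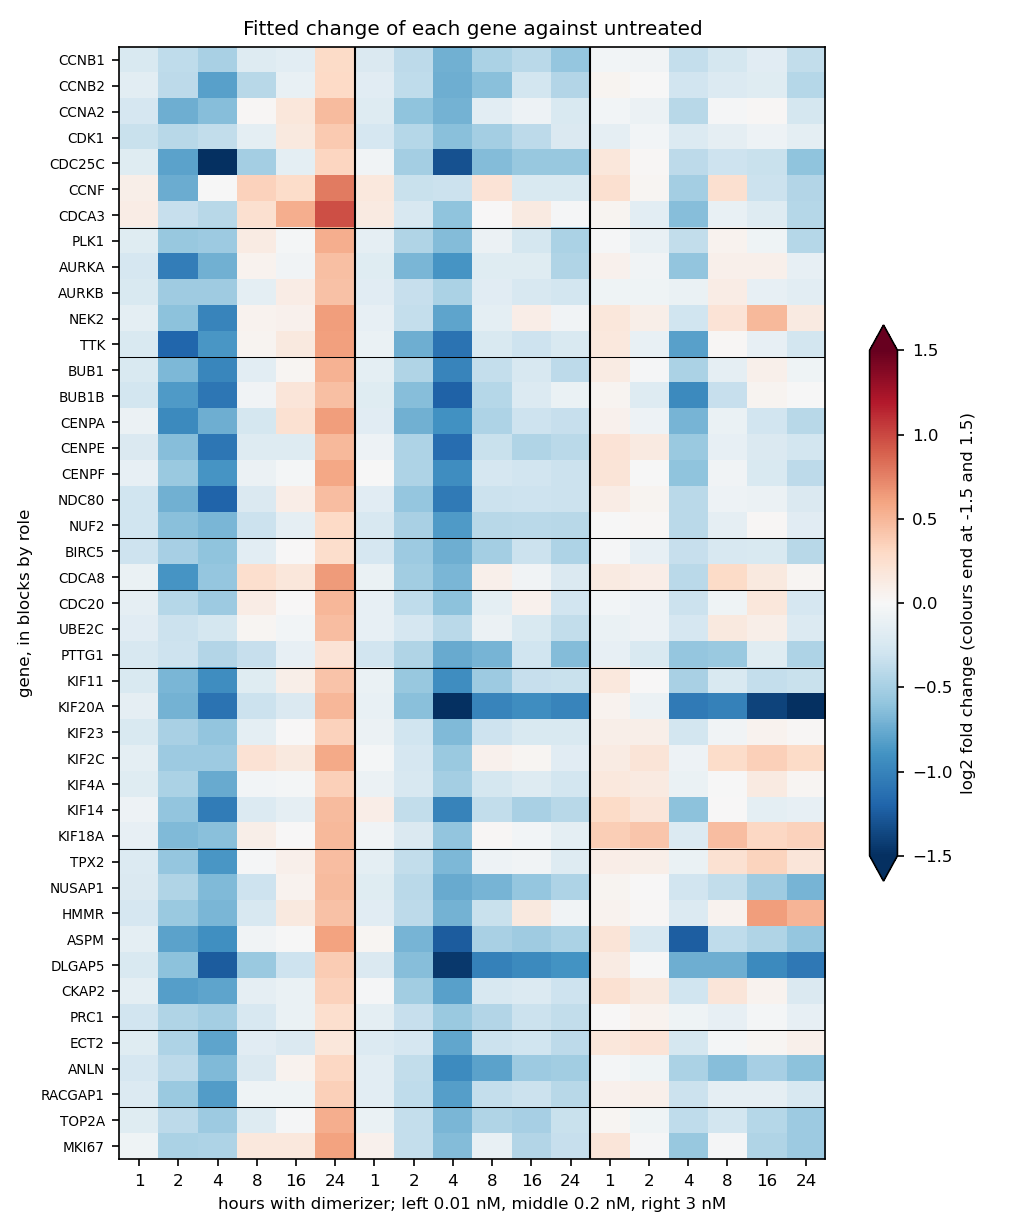
Log2 fold change against untreated (colour; blue lower, red higher, colours end at -1.5 and 1.5) of each of the 43 genes (y axis, in blocks by role) over 6 times at 0.01, 0.2 and 3 nM (x axis, hours, left to right). The 0.01 nM block turns red in every gene after 24 h; at 3 nM KIF20A stays blue from 4 h on, while HMMR, KIF18A and KIF2C end red.

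Compared directly after 24 h, all 43 genes were lower at 0.2 than at 0.01 nM (median -0.83, 24.6% of all genes lower), from KIF20A (-1.48, SE 0.0581, edgeR adjusted p = 1.2e-29), DLGAP5 (-1.28), ASPM (-1.08) and PLK1 (-1.02) to HMMR (-0.50). These libraries have like depth. Between 3 and 0.2 nM 18 were higher and 7 lower (median 0.09, 30.6% of all genes higher and 25.5% lower). Here too dose and depth cannot be told apart, the median was below the 0.17 between the untreated sets, and by limma on log2(TPM + 1) 7 were higher. HMMR (0.56), KIF18A (0.49), ECT2 (0.47) and KIF2C (0.46) led the higher ones, and the 7 lower were KIF20A (-0.88), CDCA3 (-0.41), NUSAP1 (-0.24), TOP2A (-0.21), MKI67 (-0.20), CCNF (-0.20) and DLGAP5 (-0.18). KIF18A (0.42) and ECT2 (0.38) had already been higher at 3 than at 0.2 nM after 1 h, as had 34 genes in all (15.9% of all genes).

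CCNF (chromosome 16, 2429394 to 2458854, plus strand) had the largest rise of the 43 from 2 h to 4 h at 0.01 nM (0.73). In that step 4 of the 43 were called higher, beside 15.9% of all genes. A lowest mean at 2 h was not particular to CCNF, since 13 genes had it at this dose. At 0.01 nM it was at 58.5, 57.5 and 54.8 CPM after 2 h but at 103, 88.5 and 92.9 CPM after 4 h, against 88.3, 89.0 and 107 CPM in untreated set 1. At this dose it was low at 2 h and overlapped untreated at 4 h. At 3 nM it was at 66.7, 67.4 and 66.7 CPM after 4 h, at 112, 109 and 115 CPM after 8 h and at 68.3, 72.3 and 70.1 CPM after 24 h, against 94.5, 91.0 and 100.2 CPM in untreated set 2. At this dose it was low at 4 h, above untreated at 8 h and low again at 24 h, without overlap between those groups and untreated.

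Lists of other cell cycle genes were measured in the same fit. Of 61 other mitotic genes, 53, 55 and 44 were lower after 4 h at the rising doses, and after 24 h 54 were higher and 2 lower at 0.01 nM (median 0.39), 17 and 30 at 0.2 nM (-0.10), and 27 and 25 at 3 nM (0.04). Of all genes, 26.1%, 29.2% and 31.9% were lower after 4 h at the rising doses. After 24 h, 21.0%, 34.3% and 41.1% of all genes were higher and 22.2%, 31.2% and 36.0% lower. At 3 nM after 24 h the list was close to those shares both ways. WEE1, the kinase that inhibits CDK1, was lower after 8 h at each dose (-0.998, -1.35 and -1.35) and after 24 h at 0.2 nM (-1.13). CDC25A (0.63 at 0.01 nM), SPC25 (-1.06 at 0.2 nM) and FBXO5, an inhibitor of the anaphase-promoting complex (1.21 at 3 nM), were the other largest at 8 h. After 24 h they were TROAP (0.87) and KIF18B (0.84) at 0.01 nM, SKA1 at 0.2 nM (0.88) and 3 nM (1.43), and PSRC1 at 3 nM (-1.25). The difference in the late change between 0.2 and 0.01 nM was lower for 31 and higher for 7 of the 61 (median -0.23), beside 11.8% and 13.8% of all genes. The lower share was smaller than among the 43.

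S phase genes, which serve DNA replication, were counted in the same way. Of 34, 22, 28 and 22 were lower after 4 h at the rising doses, and after 24 h 25, 23 and 19 were higher and 0, 5 and 7 lower. The shares of all genes at these times are those given beside the other mitotic genes. From 8 h to 24 h 7 rose and 13 fell at 0.01 nM (median -0.15), 30 rose and 0 fell at 0.2 nM (0.40), and 28 rose and 3 fell at 3 nM (0.35). Of all genes, 17.5%, 19.0% and 29.4% rose and 20.5%, 20.9% and 29.3% fell at the rising doses. The difference in the late change between 0.2 and 0.01 nM was higher for 28 and lower for 2 (median 0.54), beside 13.8% and 11.8% of all genes. Its sign was opposite to that of the 43. At 8 h ORC1 (0.88) and CDC6 (0.71) led at 0.01 nM, TK1 (-0.73) and CCNE2 (-0.61) at 0.2 nM, and PCNA (-1.02) and FEN1 (-0.67) at 3 nM. At 24 h CDT1 (0.57) and UHRF1 (0.45) led at 0.01 nM, CDC6 (0.90) and CDT1 (0.70) at 0.2 nM, and CDC6 (1.44) and ORC6 (1.08) at 3 nM. CDC6, CDT1 and the ORC subunits license replication origins.

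Of 21 factors that regulate the G2 and mitosis promoters or are related to those that do, FOXM1 fell after 4 h at each dose (-0.53, -0.58 and -0.49), rose after 24 h at 0.01 nM (0.52) and fell after 24 h at 0.2 nM (-0.12) and 3 nM (-0.46). In the list 9, 10 and 14 were higher and 2, 5 and 7 lower after 24 h, led by E2F2 (0.63) and E2F5 (0.54) at 0.01 nM, E2F5 (0.73) and RBL1 (0.55) at 0.2 nM, and RBL2, a pocket protein of the DREAM complex (-0.98), and LIN9, a MuvB subunit (0.92), at 3 nM. Of all genes, 21.0%, 34.3% and 41.1% were higher and 22.2%, 31.2% and 36.0% lower after 24 h. The higher counts of the list of 21 exceeded those shares at each dose, and the lower counts did not. At 8 h E2F5 (0.73) and E2F2 (0.50), E2F5 (0.79) and E2F8 (-0.60), and TFDP2 (-0.75) and E2F3 (0.59) had the largest changes at the rising doses. Of 14 tested cyclins, kinases and inhibitors of G1, 6, 12 and 10 were lower and 5, 2 and 3 higher after 24 h. These counts stand beside the same shares of all genes, and the medians were 0.06, -0.36 and -0.58. The largest changes were CDKN1C (-1.01) and CDKN2B (-0.91), CDKN2B (-2.16) and CDKN1C (-1.88), and CDKN2C (-2.69) and CDKN1C (-2.53) at the rising doses. CDKN1C was also lowest after 8 h (-1.88, -2.16 and -2.40), followed by CDKN2B (-0.83) at 0.01 nM and CDKN2C at 0.2 nM (-1.54) and 3 nM (-1.73). CDKN1A, the CDK inhibitor p21, fell after 4 h by 1.03, 0.67 and 0.54. Of 10 ISR targets, 8, 10 and 10 were higher and 2, 0 and 0 lower after 24 h (medians 0.80, 1.86 and 2.18), beside the same shares of all genes. The lowest value at 0.01 nM was -0.90. CHAC1 (1.97) and ASNS (1.82) led at 0.01 nM after 24 h, CHAC1 (3.90) and TRIB3 (3.80) at 0.2 nM, and TRIB3 (4.49) and CHAC1 (4.08) at 3 nM. After 8 h the leaders were CHAC1 (3.44) and PSAT1 (1.76), CHAC1 (4.20) and TRIB3 (3.99), and TRIB3 (4.33) and CHAC1 (3.97). At 0.01 nM 1 of the 10 was then lower (-0.77), beside 26.0% of all genes.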

How the data were processed

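RNA from 60 libraries was sequenced after a strand-keeping library preparation, per the labels' protocols. The authors deposited estimated counts and TPM per gene; Salmon 0.9.1, FastQC 0.11.5 and GRCh38 are named in the submitters' processing notes, without their roles, and the annotation release is not given in the sources used here. Positions are from GENCODE 29, which held 40 of the 43 identifiers with the same version. Estimated counts were rounded, filtered with filterByExpr (18040 of 57665 genes kept), scaled by TMM and tested by quasi-likelihood in edgeR 4.0.16 (limma 3.58.1, DESeq2 1.42.0, R 4.3.3) in 1 fit of 20 group means. P-values were adjusted by Benjamini-Hochberg over all genes in each comparison, with a threshold of 0.05. A standard error is the log2 change over the root of F. The common dispersion was 0.00129, so changes of a few percent can pass. Chi-square per degree of freedom between replicates ran from 1.369 to 23.358, so no 2 libraries were alike within sampling noise; the highest values were at 3 nM after 4 h (23.358) and 2 h (9.624), and those of all other groups were at most 3.258.

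Per-library levels are scaled CPM computed from the deposited counts and not, as first planned, TPM, because relative to scaled CPM the deposited TPM of untreated set 1 lie lower (log2 shifts of -0.208 to -0.275), as do those of 3 nM 4 h replicate 1 (-0.185); TPM ranges are given beside them. The members and lists were chosen with earlier results of these data known. Levels per library are given for CCNB1, PLK1 and the 6 genes with the widest range of group means, and for HMMR and CCNF, chosen after their values were seen. In each counted comparison the 4 largest called changes, up to 5 called against the majority and 8 anchors (CCNB1, CDK1, PLK1, AURKA, CDC20, TOP2A, MKI67, KIF20A) were to be named; in other lists the 2 largest at 8 h and 24 h. Counts cover 8 h, 24 h and, added later, 4 h. Alternatives were other scaling, tool, filter, unit, pseudocount, control set, replicate block, left-out libraries and promoter window.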

Additional observations from a re-analysis of the deposited data

Results flagged for a closer look

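The change from 8 h to 24 h differed between doses by a test of the difference itself. It was lower at 0.2 than at 0.01 nM for 42 of the 43 genes, with CCNF at -0.88, DLGAP5 at -0.82, KIF20A at -0.81 and PLK1 at -0.81 (log2 differences). Of all genes, 11.8% were lower and 13.8% higher. Between 3 and 0.2 nM it was lower for 17 genes, with KIF20A at -0.86, NUSAP1 at -0.56, DLGAP5 at -0.47 and CENPA at -0.43. It was higher for 1 and not called for 25, beside 13.9% of all genes lower and 15.0% higher. The first comparison is within libraries of like depth, whereas the second compares changes within a deep and a shallow set.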

How the results depend on the processing

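The fall at 4 h, the rise from 4 h to 8 h, the rise at 0.01 nM by 24 h and the dose difference of 0.2 against 0.01 nM in the late change kept their counts within 1.5 times under every alternative run. Counts that moved further, with the cause not tested, were these. Genes lower at 0.01 nM after 8 h (22) came to 11 against untreated set 1 alone and 4 by limma on log2(TPM + 1) and 4 on log2(TPM + 0.1); genes higher there (7) to 4 against set 2 alone, 4 on centred TPM, and 4 to 7 with a replicate or library left out. By limma on TPM with either pseudocount, the count was 19 for lower at 0.2 nM after 8 h (35), 5 for the rise at 0.2 nM from 8 h to 24 h (8), 24 for lower at 0.2 nM after 24 h (38), 14 for 0.2 below 0.01 nM at 8 h (30), 7 for 3 above 0.2 nM at 24 h (18), and at 3 nM after 8 h 7 for lower (20) and 13 for higher (8). For 3 above 0.2 nM at 8 h (34) it was 17 and 16. The 3 nM lower count at 8 h was also 13 with no low-count filter and 10 against set 1 alone; the 3 nM fall from 8 h to 24 h (28) was 18 on centred TPM; and the 3 nM higher count at 24 h (5) was 9 with no filter. The lower difference between 3 and 0.2 nM (17) was 9 and 10 on TPM, 6 on centred TPM and 10 to 17 with a replicate or library left out. Untreated set 2 above set 1 (27) was 8 on centred TPM and 10 to 29 with a replicate or library left out. Single genes changed sign 10 times, all at 8 h: MKI67 was -0.017 at 0.01 nM against set 2 alone and 0.062 at 0.2 nM against set 1 alone; on TPM at 0.2 nM AURKA was 0.004 and 0.005, CDC20 0.088 and 0.088 and MKI67 0.119 and 0.122, and at 3 nM CDK1 was 0.005 and 0.005. With the replicate block the counts were within 1.5 times, for example 28 for set 2 above set 1 and 16 for the lower difference between 3 and 0.2 nM; same-numbered libraries had a mean correlation of 0.020 and other pairs -0.010, 17 of 190 group pairs exceeded 0.1, and 33 of 60 libraries were closest to their own number. Depth limits the shallow set most, and the lowest count of any of the 43 genes in a library was 38. With windows of 150 bases before to 50 after the start, CCAAT was in 75%, a hexamer in 63.6% and both in 54.5% of the member windows.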
